A study of Mus musculus with 6 samples.

Results

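The secreted Wnt antagonists are proteins that cells release to restrain Wnt signalling outside the cell. The 10 genes described here, Dkk1, Dkk2, Dkk3, Sfrp1, Sfrp2, Sfrp4, Sfrp5, Frzb, Wif1 and Notum, were chosen by name and matched by symbol to the 55487 gene IDs of the rib cage RNA-Seq count table. Each matched 1 gene ID, and all 10 were among the 26596 genes abundant enough to be tested. RNA was taken from the rib cages of 6 mouse embryos at 16.5 dpc (days post coitum), 3 controls (E420, E434 and E435) and 3 mutants (E423, E433 and E440). The labels give the controls as wild type and the mutants as Col2-cre;Foxc1-/-;Foxc2-/-. In the cross given in the study's methods the mothers were homozygous for floxed alleles of both genes. The cre came from the father, on a mixed C57B6 and Black Swiss background. A control from this cross would carry a floxed allele of each gene, without cre, although the labels say wild type. Col2-cre removes both genes in cells that have used the Col2 promoter, that is chondrocytes, their progenitors and cells that derive from them, and leaves them intact in the other cells of the rib cage. The question put to these data was how the levels of the antagonists differed between mutant and control embryos.

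Wnt ligands are lipid-modified proteins that bind Frizzled receptors together with the co-receptors LRP5 or LRP6 and stabilise beta-catenin in the receiving cell. Signalling through beta-catenin favours the osteoblast fate over the chondrocyte fate and speeds chondrocyte hypertrophy. The antagonists act at different steps. DKK1 and DKK2, of the Dickkopf family, bind LRP5 and LRP6. The secreted Frizzled-related proteins (the Sfrp genes and Frzb, also known as Sfrp3) and WIF1 bind the Wnt ligands. NOTUM is an enzyme that strips the lipid from these ligands.

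The depth and makeup of the libraries come first, since they touch each value below. Library totals ran from 37853988 to 47794799 counts. The deleted genes had lower levels in all 3 mutants than in all 3 controls, at 23.1 to 36.9 CPM (counts divided by library size, after TMM scaling) in controls and 3.51 to 9.61 CPM in mutants for Foxc1, and at 1.99 to 4.83 and 0.649 to 1.14 CPM for Foxc2 (adjusted p = 0.235 and 0.239 from edgeR, 9.63e-07 and 0.000207 from DESeq2). Control E434 and mutant E433 stood apart from the other libraries of their groups. The 13 early chondrocyte markers summed to 27566 CPM in E434 and 10268 CPM in E433, against 2021 to 2126 CPM in the other controls and 709 to 733 CPM in the other mutants. The 9 keratinocyte markers summed to 22.7 CPM in E434, to 3281 CPM in E433, and to 5932 to 6345 CPM among the other controls and 25650 to 25897 CPM among the other mutants, so all libraries but E434 held clear epidermal RNA. The 6 hepatocyte markers summed to 615 CPM in E433 and 30.1 to 49.2 CPM elsewhere. Cartilage and bone markers were present in every library. Results for the antagonists that rest on E434 or E433 are therefore given with and without them. The text calls a gene past the limits when edgeR gave it an adjusted p under 0.1 and a log2 fold change of 1 or more in either direction.

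The antagonists differed widely in level. Levels of different genes were compared per transcript length, as TPM from RSEM, a unit that divides out transcript length and library size. Sfrp2 was the most abundant, at 89.1 (E420), 46.7 (E434) and 84.0 TPM (E435) across the controls and 41.0 (E423), 108 (E433) and 38.3 TPM (E440) across the mutants. By the control median, Sfrp1 (38.2 TPM), Wif1 (23.5 TPM), Dkk3 (18.6 TPM), Frzb (17.5 TPM), Dkk2 (16.1 TPM) and Sfrp4 (14.1 TPM) followed, and Notum (6.43 TPM), Sfrp5 (4.55 TPM) and Dkk1 (4.51 TPM) were the lowest. For each pair of neighbours in this order the ranges of the 3 controls overlapped, so no neighbour was separated from the next beyond the spread between embryos. In the mutants Sfrp2 was again first and Dkk1 again last, Wif1 came next at a median of 20.9 TPM, and Sfrp1 stood behind Frzb at 18.2 TPM.

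**Figure D1:**
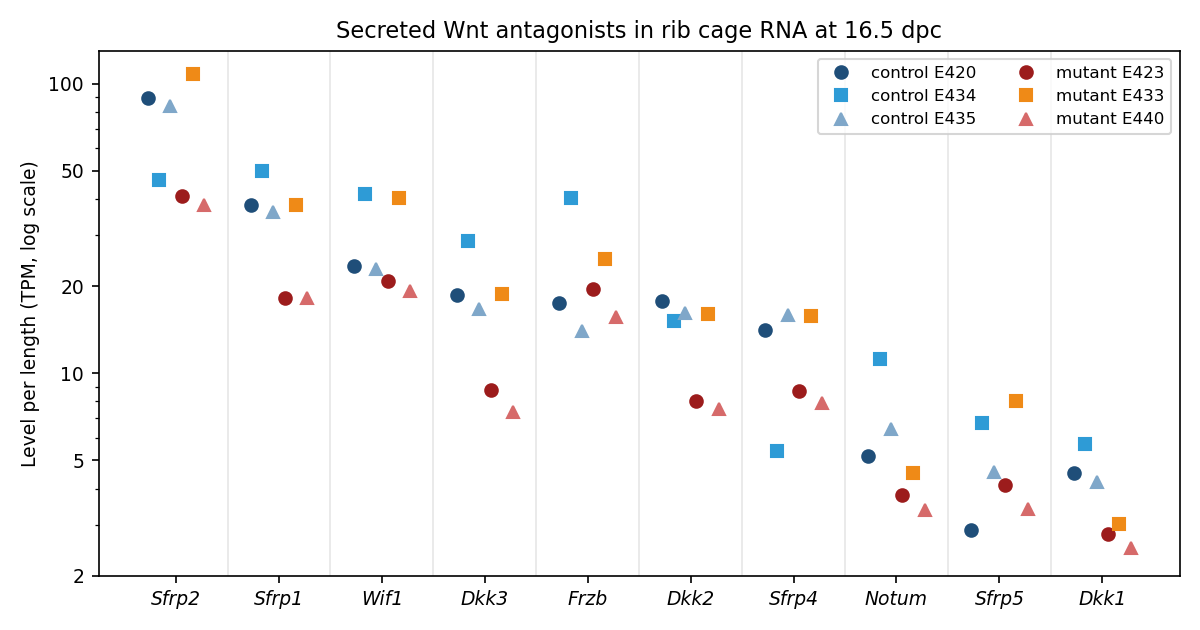
Level per length (TPM from RSEM, log scale) of the 10 secreted Wnt antagonists in each embryo, ordered by the control median; blue points are the 3 controls, red and orange points the 3 mutants. Sfrp2 is highest at a control median of 84.0 TPM and Dkk1 lowest at 4.51 TPM, and the squares (control E434 and mutant E433) often lie away from the other points of their group.

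Summed over the 10 genes, the level was 231 (E420), 252 (E434) and 221 TPM (E435) for the controls and 136 (E423), 277 (E433) and 123 TPM (E440) for the mutants, so mutant E433 lay above all controls and the other mutants below. The Sfrp genes and Frzb made up 59.3% to 70.0% of this sum in controls and 67.4% to 70.2% in mutants. The Dickkopf genes made up 16.8% to 19.7% in controls and 13.6% to 14.4% in mutants, and these ranges did not overlap. A share also depends on the level of the other members. In mutant E433, Dkk2 (16.0 TPM) and Dkk3 (18.7 TPM) lay within their control ranges, while Sfrp2 was at 108 TPM. How often such a share fails to overlap between the groups was not computed. The share of Wif1 was 10.2% to 16.6% in controls and 14.6% to 15.6% in mutants.

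Of the 10 antagonists, 9 had a log2 fold change below 0 in mutants, where 48.8% of all genes tested did. The median over the members was -0.44, beside 0.01 over all genes tested. The members were chosen with earlier results of these data known, so these shares and those below are only a description. In the quasi-likelihood fit of edgeR, with p adjusted by Benjamini-Hochberg across the whole table, 0 of the 10 were past the limits (0.0639% of all genes were), and 0 had an adjusted p under 0.1 (0.0902% of all genes did). At an unadjusted p under 0.05 there were 5 of the 10, namely Dkk1, Dkk2, Dkk3, Sfrp1 and Notum, all of them lower in mutants. Over all genes the share at that p was 10.6%, of which the lower genes were 4.7%. DESeq2's Wald test gave an adjusted p under 0.1 for Dkk1 and Notum, 2 of the 10, where it did so for 3.57% of all genes. With the limit on the fold change added it called 0 of the 10, beside 1.79% of all genes. In Dkk1, Sfrp1 and Notum every mutant library lay below every control library, a pattern seen in 8.21% of all genes in that direction. With 3 embryos against 3 an exact permutation test of 1 gene cannot give a 2-sided p below 0.1, so the p-values given use a spread shared among genes. Since whole tissue was sequenced, fewer cells of a type and less RNA per cell cannot be told apart.

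**Figure D2:**
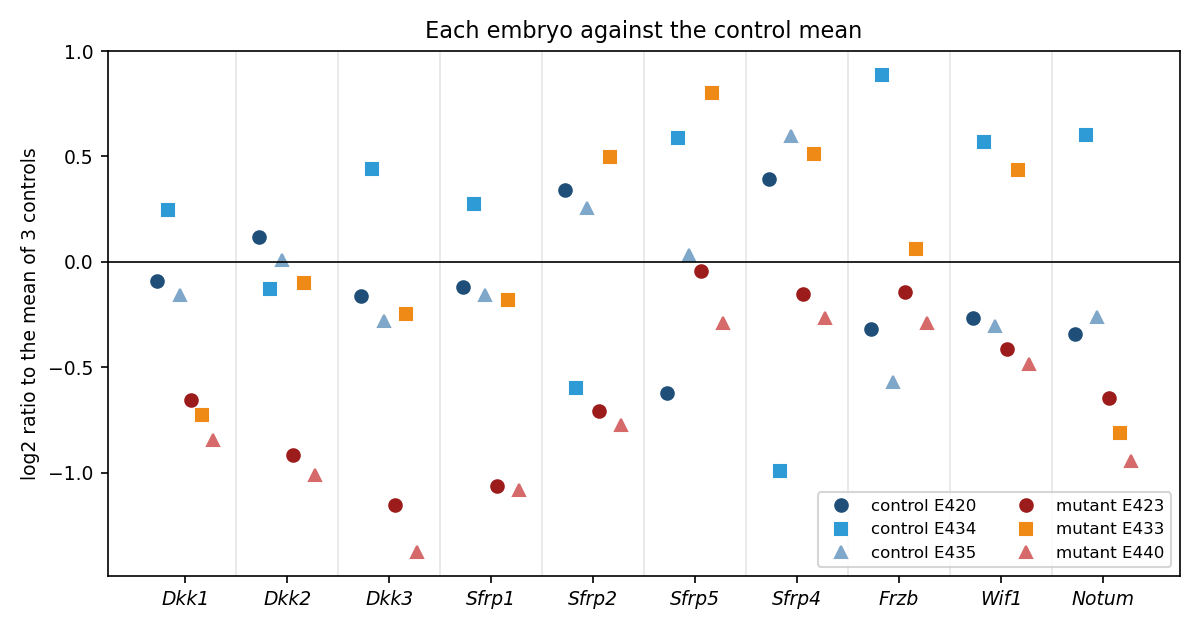
Log2 ratio of each embryo to the mean of the 3 controls (log2 CPM with a prior count of 2) for the 10 antagonists; blue points are controls, red and orange points mutants. The 3 mutants lie together below the 3 controls for Dkk1 and Notum, mutants E423 and E440 alone are far below for Dkk2 and Dkk3, and the groups are mixed for Sfrp2, Sfrp5, Sfrp4, Frzb and Wif1.

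The Dickkopf genes are described first. DKK1 is the classical inhibitor of the LRP5 and LRP6 co-receptors and holds back bone formation. Dkk1 (ENSMUSG00000024868.8, chromosome 19 from 30545863 to 30549665 in GRCm38, the build of all coordinates given, minus strand) reached 7.66 (E420), 9.71 (E434) and 7.32 CPM (E435) across the controls against 5.17 (E423), 4.92 (E433) and 4.53 CPM (E440) across the mutants. The mutants were close to each other, and the highest of them lay below the lowest control. Controls averaged 8.23 ± 1.29 CPM (SD, n = 3) and mutants averaged 4.87 ± 0.324 CPM (SD, n = 3), or 59.2% of the control mean. The log2 fold change was -0.76 with a standard error of 0.154, and it did not pass the limit on the adjusted p from edgeR (adjusted p = 0.26), whereas it did with DESeq2's Wald test (adjusted p = 0.00433). When each library was left out in turn the value lay between -0.84 and -0.62, with an adjusted p of 0.0659 without mutant E433. Without control E434, 0 of the 10 members had an adjusted p under 0.1, beside 0.077% of all genes. At 209 to 440 counts per library Dkk1 was the least abundant member per length, and its level was the most even within the mutants.

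DKK2 binds the same co-receptors and takes part in late osteoblast differentiation. Dkk2 (chromosome 3 from 132085292 to 132180304) measured 47.4, 40.0 and 43.9 CPM across the controls against 23.1, 40.7 and 21.7 CPM across the mutants, in the same order of embryos. Mutant E433 lay within the control range, and the other mutants had about the same low level. The log2 fold change was -0.62 with a standard error of 0.248 (adjusted p = 0.462 from edgeR), and -0.96 without mutant E433 (adjusted p = 0.0102), a fit in which 4 of the 10 members and 13.4% of all genes had an adjusted p under 0.1. Without control E434 the value for Dkk2 was -0.68 (adjusted p = 0.484 from edgeR). DKK3 is a divergent relative whose action on Wnt signalling depends on the setting. Dkk3 (chromosome 7 from 112116017 to 112159057) measured 45.0, 68.5 and 41.5 CPM across the controls against 22.6, 42.5 and 19.4 CPM across the mutants. Here too mutants E423 and E440 were the lowest, and E433 lay just above the lowest control. Its log2 fold change was -0.87 with a standard error of 0.339 (adjusted p = 0.449 from edgeR) and -1.29 without mutant E433 (adjusted p = 0.0442). Without E434, the highest control for Dkk3, the value was -0.62 (adjusted p = 0.57 from edgeR).

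Promoter sequence is shown for the Dickkopf pair Dkk1 and Dkk2, which differed in how evenly they were lower in the mutants, and for Wif1, whose groups overlapped. RefSeq (GRCm38.p6) gave a window of 250 bases before to 50 after the start for 6 of the 10 members (Dkk1, Dkk2, Sfrp2, Sfrp5, Frzb and Wif1), and not for Dkk3, Sfrp1, Sfrp4 and Notum. Capitals mark each match, on either strand, to a forkhead core (TGTTTAC), to a TCF/LEF core (CTTTGAA as well as CTTTGAT, then also CTTTGTT and finally CTTTGTA) or to a TATA element (TATAAA). These are chr19:30549447-30549746 on the minus strand, chr3:132085042-132085341 on the plus strand and chr10:121033754-121034053 on the plus strand, each read 5′ to 3′ along its gene.
Dkk1: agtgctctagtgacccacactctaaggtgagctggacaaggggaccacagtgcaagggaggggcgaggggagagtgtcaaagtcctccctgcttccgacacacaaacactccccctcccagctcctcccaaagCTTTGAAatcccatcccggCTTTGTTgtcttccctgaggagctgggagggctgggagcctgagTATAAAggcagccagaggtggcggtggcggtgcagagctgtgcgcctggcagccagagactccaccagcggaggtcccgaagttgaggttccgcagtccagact
Dkk2: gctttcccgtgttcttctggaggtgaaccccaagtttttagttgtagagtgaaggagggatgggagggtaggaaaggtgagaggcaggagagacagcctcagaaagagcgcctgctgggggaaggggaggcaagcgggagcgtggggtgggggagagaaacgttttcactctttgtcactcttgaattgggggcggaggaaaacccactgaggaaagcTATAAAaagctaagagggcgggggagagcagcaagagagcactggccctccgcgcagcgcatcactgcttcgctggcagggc
Wif1: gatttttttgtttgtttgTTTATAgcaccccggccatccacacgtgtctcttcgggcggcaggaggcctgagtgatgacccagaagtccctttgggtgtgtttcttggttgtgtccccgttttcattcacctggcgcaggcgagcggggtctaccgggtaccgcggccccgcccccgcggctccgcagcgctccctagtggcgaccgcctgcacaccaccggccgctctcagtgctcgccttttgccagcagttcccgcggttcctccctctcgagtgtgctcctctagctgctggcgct
Dkk1 holds CTTTGAA from -117 to -111 and CTTTGTT from -98 to -92, counted in bases from the RefSeq start. None of the other windows had a TCF/LEF match. On the minus strand the GENCODE gene Dkk1 begins at 30549665, inside this window and before the RefSeq start. Both matches, and the TATAAA of Dkk1, thus lie within the gene as GENCODE gives it. Over all 32851 RefSeq windows of this length, 16.9% hold at least 1 of these 4 TCF/LEF cores. TATAAA stands at -54 to -49 in Dkk1 and at -32 to -27 in Dkk2, and on the opposite strand at -232 to -227 in Wif1, and 13.6% of all windows hold it. The forkhead form searched, TGTTTAC, in 3.65% of all windows, was in none of the 6 windows. Other forms of the forkhead core were not searched over all windows. The Wif1 window holds TGTTTAT, which differs from TGTTTAC in the last base and shares the bases TTTAT with the marked TATA match. It also holds TGTTTGT, as the Dkk1 window does on the opposite strand (ACAAACA). These forms were read from the printed windows only, and their share over all windows was not computed. Sfrp2, Sfrp5 and Frzb had no match. These are matches of letters and are no evidence of binding.

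The secreted Frizzled-related proteins carry a cysteine-rich domain like that of the Frizzled receptors. Sfrp1, Sfrp2 and Sfrp5 form one branch of the family, and Sfrp4 and Frzb another. Sfrp1 (ENSMUSG00000031548.7, chromosome 8 from 23411502 to 23449632), whose loss in mice raises bone mass, had 119, 156 and 116 CPM across the controls against 61.7, 114 and 60.9 CPM across the mutants. Every mutant lay below every control, but mutant E433 was within 2 CPM of the lowest control. Controls averaged 130 ± 22.5 CPM (SD, n = 3) and mutants averaged 78.8 ± 30.3 CPM (SD, n = 3). The log2 fold change was -0.72 with a standard error of 0.272 (adjusted p = 0.44 from edgeR), and -1.08 without mutant E433 (adjusted p = 0.0229). Without E434, the highest control for Sfrp1, the value was -0.57 (adjusted p = 0.547 from edgeR).

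Sfrp2 (chromosome 3 from 83766321 to 83774316), a product of fibroblasts and other mesenchymal cells, had 103, 53.9 and 97.4 CPM across the controls against 49.9, 115 and 47.7 CPM across the mutants. The libraries that stood apart ran against their groups, since control E434 was near the low mutants and mutant E433 was the highest of all. The log2 fold change of -0.26 was smaller than its standard error of 0.408. The antisense gene Gm26771 shares exon bases with Sfrp2 and strand was not used in counting, but it had only 2 to 10 counts per library beside 2076 to 4962 for Sfrp2. Sfrp5 (chromosome 19 from 42197971 to 42202252) measured 3.74, 8.69 and 5.92 CPM across the controls against 5.60, 10.1 and 4.72 CPM across the mutants. It was the only member with a log2 fold change above 0 (0.15, standard error 0.394), and the value was -0.10 without control E420 and -0.24 without mutant E433, so its direction rested on single embryos.

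In the other branch, SFRP4 limits Wnt signalling in cortical bone, and FRZB was first isolated from cartilage. Sfrp4 (chromosome 13 from 19623104 to 19632994) measured 17.7, 6.75 and 20.4 CPM across the controls against 12.1, 19.2 and 11.2 CPM across the mutants, with control E434 the lowest of all libraries. Its log2 fold change was -0.08 with a standard error of 0.423, and it lay above 0, at up to 0.22, when control E420, control E435, mutant E423 or mutant E440 was left out. Frzb (ENSMUSG00000027004.3, chromosome 2 from 80411970 to 80447625) measured 30.7, 70.9 and 25.8 CPM across the controls against 34.6, 39.9 and 31.3 CPM across the mutants. A single control, E434, was the highest, and all 3 mutants lay above the other controls. All libraries together gave -0.27 on the log2 scale (standard error 0.378), and without control E434 the value was 0.32 with a standard error of 0.142 (adjusted p = 0.495 from edgeR), in the other direction.

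Wif1 and Notum belong to neither family. WIF1 binds Wnt ligands through its own domain and is made by cartilage near its surface. Wif1 (ENSMUSG00000020218.11, chromosome 10 from 121033960 to 121100650) measured 36.4, 65.0 and 35.4 CPM across the controls against 32.9, 59.2 and 31.3 CPM across the mutants. E434 and E433 were high by a similar factor over the other libraries of their group, with log2 ratios of 0.86 and 0.88. The value for Wif1 on the log2 scale was -0.15 (standard error 0.336), and it was 0.20 without control E434 and 0.01 without mutant E440. Notum (ENSMUSG00000042988.10, chromosome 11 from 120653788 to 120661175) is itself switched on by Wnt signalling in many tissues. It had 4.73, 9.16 and 5.01 CPM across the controls against 3.82, 3.41 and 3.10 CPM across the mutants, so that the 3 mutants were alike and below all controls. Controls averaged 6.30 ± 2.48 CPM (SD, n = 3) and mutants averaged 3.44 ± 0.364 CPM (SD, n = 3), or 54.7%. Its log2 fold change was -0.87 with a standard error of 0.282 (adjusted p = 0.411 from edgeR), it was -0.50 without control E434, and DESeq2's Wald test gave an adjusted p of 0.0961. The antisense genes Notumos and Myadml2os share exon bases with Notum, and they had 18 to 34 and 1 to 6 counts per library beside 143 to 415 for Notum.

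E434 and E433 carried the most early chondrocyte RNA in their groups, so mutant and control were also compared with these libraries left out, and between them. The makeup of the libraries differed in either case. The early chondrocyte sum was 2021 to 2126 CPM in controls E420 and E435 against 709 to 733 CPM in mutants E423 and E440, the keratinocyte sum was 5932 to 6345 CPM against 25650 to 25897 CPM, and in the fit of these 4 libraries Col2a1, the main cartilage collagen gene, had a log2 fold change of -1.83 (adjusted p = 5.43e-17 from edgeR). The part of these differences in the values for the antagonists was not tested. For the antagonists, mutants E423 and E440 against controls E420 and E435 gave log2 fold changes of -1.03 for Dkk2, -1.04 for Dkk3, -1.04 for Sfrp2, -0.93 for Sfrp1, -0.71 for Sfrp4, -0.63 for Dkk1, -0.50 for Notum and -0.16 for Wif1, and 0.08 for Sfrp5 and 0.23 for Frzb. In this fit 9 of the 10, all but Sfrp5, had an adjusted p under 0.1 with edgeR, but so did 37.6% of all genes, and within each of these pairs the libraries were nearly alike. Mutant E433 against control E434 is a ratio of 2 single libraries with no replicate check. Its log2 value was -1.41 for Notum, -0.97 for Dkk1, -0.83 for Frzb, -0.69 for Dkk3, -0.45 for Sfrp1 and -0.14 for Wif1, and it was 0.03 for Dkk2, 0.21 for Sfrp5, 1.10 for Sfrp2 and 1.5 for Sfrp4. Dkk1, Dkk3, Sfrp1, Wif1 and Notum were thus below the control in both comparisons. Sfrp2 and Sfrp4 were lower in the mutants E423 and E440 and higher in mutant E433 than in its counterpart, and Frzb had the opposite pattern.

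**Figure D3:**
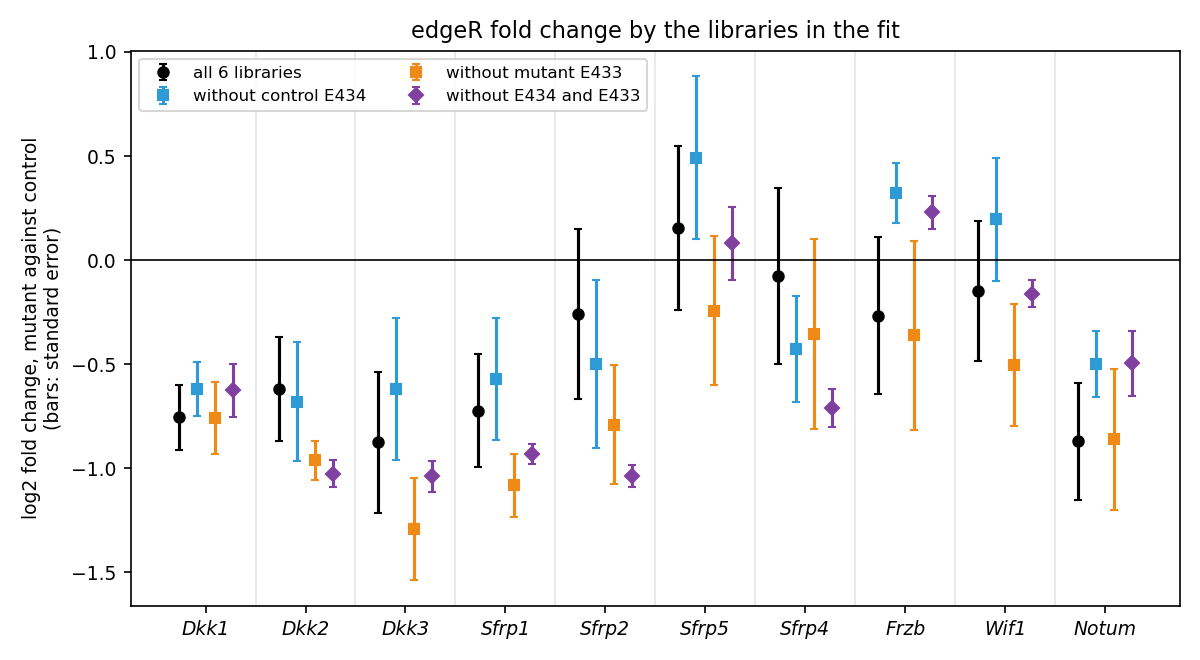
Log2 fold change of mutant against control from edgeR for each antagonist (bars are standard errors) with all 6 libraries (black), without control E434 (blue), without mutant E433 (orange) and without both (purple). Dkk1, Dkk2, Dkk3, Sfrp1, Sfrp2, Sfrp4 and Notum stay below 0 in all 4 fits, whereas Sfrp5, Frzb and Wif1 cross 0.

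As a further fit, each library's average early chondrocyte level (log2 CPM) was added to the model as a covariate. All 13 of these markers had log2 fold changes below 0 in mutants. The covariate may therefore take up part of a difference between the genotypes, and the fit cannot separate them. The log2 fold changes were then -0.67 for Dkk1, -0.54 for Dkk2, -0.61 for Dkk3, -0.53 for Sfrp1, -0.24 for Sfrp2, -0.10 for Sfrp4 and -0.63 for Notum, and above 0 for Sfrp5 (0.47), Frzb (0.18) and Wif1 (0.17). In this fit Dkk3 (adjusted p = 0.0687 from edgeR) and Sfrp1 (adjusted p = 0.0997) were under 0.1, as were 1.93% of all genes, and Dkk1 was not (adjusted p = 0.121).

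The marker sums of some other cell types differed between groups without overlap, namely osteoblast, hypertrophic chondrocyte, adipocyte, fibroblast and Schwann cell. The sums for tendon, joint, skeletal muscle, endothelium, mesothelium, hepatocyte and keratinocyte overlapped. The 12 osteoblast and osteocyte markers summed to 11521 to 16642 CPM in controls and 7996 to 8389 CPM in mutants, and 10 of the 12 were lower in every mutant than in every control. Most of that sum was Col1a1, at 9798 to 14932 CPM in controls and 7152 to 7787 CPM in mutants. The 6 hypertrophic chondrocyte markers summed to 469 to 1010 CPM in controls and 227 to 256 CPM in mutants. Of the 6, Mmp13, Panx3 and Pth1r were lower in every mutant, whereas Col10a1, Ihh and Runx3 overlapped. Col10a1 was at 126 CPM in mutant E433, against 114 and 113 CPM in controls E420 and E435. For Ihh these values were 6.29, 2.47 and 3.20 CPM. Over all genes tested, 8.21% were lower in every mutant than in every control. Of the 6 tendon markers 4 were lower in every mutant, at a sum of 462 to 1089 CPM in controls and 244 to 540 CPM in mutants. The 6 adipocyte markers summed to 132 to 145 CPM in controls and 203 to 603 CPM in mutants. All 6 were higher in every mutant, beside 6.81% of all genes. Most of the sum was Fabp4, at 125 to 140 CPM in controls and 178 to 474 CPM in mutants. Adipoq, Plin1 and Cidec were at 0.458 CPM or less in every control, and Lep had 0 counts in all 3 controls. The 7 dermal and loose connective fibroblast markers summed to 519 to 572 CPM in controls and 613 to 686 CPM in mutants. The 8 skeletal muscle markers summed to 14047 to 22871 CPM among controls, 31048 to 31743 CPM among mutants E423 and E440, and 17818 CPM in the remaining mutant. Mutants E423 and E440, in which Dkk2, Dkk3, Sfrp1 and Sfrp2 were lowest, were also those with the highest keratinocyte, adipocyte and muscle sums. Krt1 and Krt10 made up most of the keratinocyte sum in every library but E434. In the fit without E434 and E433 the 9 keratinocyte markers had log2 fold changes from 0.06 (Dsg3) to 2.66 (Krt1). The part of these differences in the results was not tested.

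**Figure D4:**
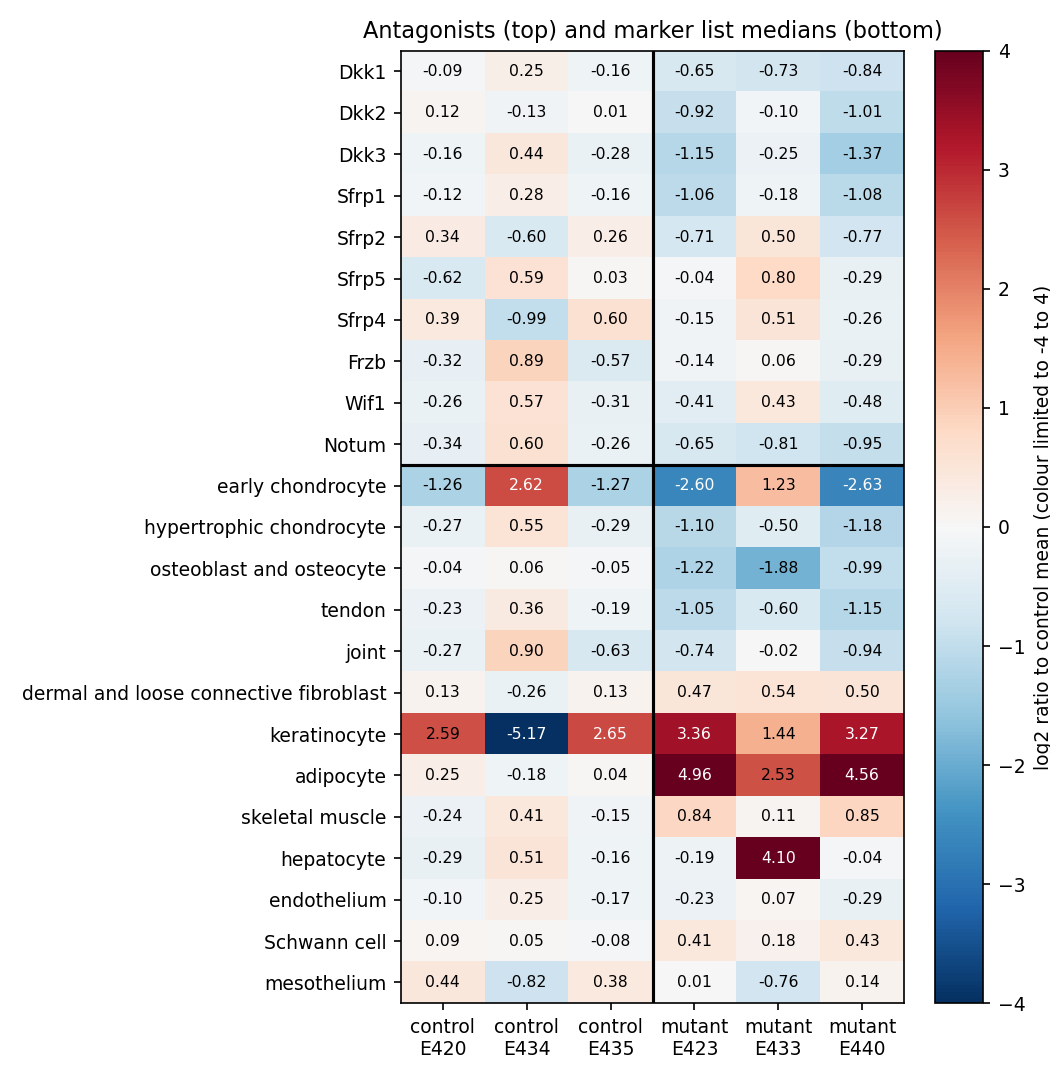
Log2 ratio to the control mean for the 10 antagonists (top rows) and the median of that ratio over 13 marker lists (bottom rows), per library, with the value printed in each cell and the colour limited to -4 to 4. The early chondrocyte list spans from -2.63 to 2.62 and the keratinocyte list from -5.17 to 3.36 across libraries, beside -1.37 to 0.89 for the antagonists.

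For each antagonist the genes with the most similar values were found over the 6 libraries, by the root mean square difference of log2 ratios to the control mean, among 13013 or 13014 genes with a mean of at least 5 CPM. Sdc2 (0.0641), a heparan sulfate proteoglycan of the cell surface, and Ndnf (0.0749) were the nearest to Dkk1. For Sfrp1 they were Dact1 (0.0536), which encodes an intracellular modulator of Wnt signalling, and Fzd8 (0.0559), a Frizzled receptor. For Dkk2 they were Lca5 (0.0646) and Cxcl12 (0.0666), for Dkk3 Mmp16 (0.0855) and Smpdl3b (0.103), and for Wif1 Fbn2 (0.0357) and Igf2r (0.0708). The nearest to Frzb were Ccn1 (0.109) and Cspg4 (0.119), to Sfrp2 Slc25a37 (0.0944) and Nefm (0.188), to Notum Itga11 (0.174) and Inhba (0.175), to Sfrp4 Fez1 (0.173) and Ptger3 (0.234), and to Sfrp5 B930095G15Rik (0.223) and Dysf (0.24). Among the antagonists themselves, Dkk3 and Sfrp1 (0.155) and Dkk1 and Notum (0.19) were each other's nearest members, as were Frzb and Wif1 (0.266). With so many genes and only 6 libraries, of which some were nearly alike, a close match is common and is given as a description.

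Other genes of the pathway were split in direction. Of 72 further Wnt genes listed by role, 70 were tested, and their median log2 fold change was 0.01, with 34 below 0 and 36 above. None passed the limit on the adjusted p with edgeR. At an unadjusted p under 0.05 edgeR gave 9 lower and 5 higher, beside 4.7% and 5.9% of all genes. With DESeq2's Wald test 4 lower and 3 higher had an adjusted p under 0.1, beside 3.57% of all genes in either direction. Without E434 and E433 the median was 0.06, and 52 of the 70 had an adjusted p under 0.1 with edgeR, beside the 37.6% of all genes given above. With the early chondrocyte covariate the median was -0.01 and 7 of the 70 had an adjusted p under 0.1, beside 1.93% of all genes. With all libraries, the groups did not overlap for 9 lower and 5 higher genes, beside 8.21% and 6.81% of all genes.

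Among other secreted inhibitors, Sost, which encodes the osteocyte product sclerostin, had 3.97, 7.04 and 5.09 CPM across the controls against 2.24, 1.39 and 2.82 CPM across the mutants, without overlap (log2 fold change -1.32, adjusted p = 0.346 from edgeR and 0.00619 from DESeq2). Sostdc1, a relative of Sost made in epithelia, had 12.6, 5.89 and 12.4 CPM across the controls against 26.3, 11.2 and 29.3 CPM across the mutants, with E433 inside the control range. Dkkl1 (0.0441 to 19.4 CPM in controls, 7.01 to 47.0 CPM in mutants) and Dkk4 (0 to 1.94 and 0.789 to 2.95 CPM) were lowest in control E434, the library with the least keratinocyte RNA. The log2 fold change of Dkkl1 was 1.43 with all libraries, 1.32 without E434 and E433 and 0.61 with the covariate. The log2 fold changes of Draxin and Cer1 were -0.15 and 0.78, the latter at 0.441 CPM or less in every library. The receptors that DKK1 and DKK2 bind had overlapping groups, with log2 fold changes of -0.35 for Lrp5, -0.22 for Lrp6 and 0.03 for Kremen1, a co-receptor of DKK1 and DKK2. Lrp4, which sclerostin binds, had 0.07, and Kremen2 had 0.74 with overlapping groups. Kremen2 was at 1.39 CPM in control E434 and 15.5 to 16.4 CPM in the other controls, and its value was 0.64 without E434 and E433 and 0.06 with the covariate.

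Of the 10 Frizzled receptors 9 had log2 fold changes below 0. Fzd5 had 19.4, 19.9 and 19.5 CPM across the controls against 12.4, 11.1 and 10.1 CPM across the mutants, and the spread within each group was small beside the gap (log2 fold change -0.81, adjusted p = 0.145 from edgeR and 3.76e-07 from DESeq2). Fzd8 also showed no overlap between groups (log2 fold change -0.70, adjusted p = 0.421 from edgeR). Among the ligands, Wnt5b, expressed in prehypertrophic chondrocytes, had 9.39, 13.9 and 10.7 CPM across the controls against 4.26, 7.66 and 5.29 CPM across the mutants (log2 fold change -0.98, adjusted p = 0.365 from edgeR and 0.014 from DESeq2). Wnt2 (log2 fold change 0.89) and Wnt11 (0.38) lay above all controls in every mutant, with unadjusted p values of 0.0332 and 0.0223 from edgeR. Of the R-spondins, which strengthen Wnt signals, Rspo2 had 9.31, 11.4 and 8.16 CPM across the controls against 4.11, 5.57 and 3.45 CPM across the mutants (log2 fold change -1.14, adjusted p = 0.244 from edgeR and 0.000358 from DESeq2). The R-spondin receptor Lgr4 (-0.36) and the cytoplasmic transducer Dvl2 (-0.23) were lower in every mutant by smaller amounts.

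The feedback and target genes, which many cells turn up when beta-catenin is active, were mixed. Axin2, the most widely used readout, had 34.0, 19.5 and 31.8 CPM across the controls against 43.5, 29.2 and 38.3 CPM across the mutants (log2 fold change 0.38, adjusted p = 0.61 from edgeR), with mutant E433 inside the control range. Lef1 (0.996), Rnf43 (0.73), Tnfrsf19 (0.27), Znrf3 (0.13), Nkd2 (0.09), Ccnd1 (0.07) and Nkd1 (-0.18) had log2 fold changes in either direction and overlapping groups. Several of these were lowest in E434, the library with the least keratinocyte RNA, as Rnf43 was at 0.0882 CPM against 6.31 to 6.59 CPM in the other controls. Without E434 and E433 the values were 0.32 for Axin2, 1.03 for Lef1 and 0.57 for Rnf43, and with the covariate they were 0.17, 0.48 and 0.11. Apcdd1 had 67.6, 34.0 and 61.7 CPM across the controls against 112, 69.8 and 109 CPM across the mutants, without overlap (log2 fold change 0.84, adjusted p = 0.428 from edgeR and 0.077 from DESeq2). Sp5 was low, at 0.0441 to 0.474 CPM in controls and 0.696 to 2.10 CPM in mutants (log2 fold change 2.28, adjusted p = 0.407 from edgeR and 0.0472 from DESeq2). Tcf7 lay below all controls in every mutant (log2 fold change -0.58, adjusted p = 0.437 from edgeR). Apart from Tcf7 and Nkd1, the 11 genes of this list had log2 fold changes above 0, while Notum, which is also a target in many tissues, did not. The median of the list was 0.27 with all libraries, 0.26 without E434 and E433 and 0.13 with the covariate. For the ligands it was 0.42, 0.26 and -0.01, and Wnt3 (0.0441 CPM in E434, 8.37 to 8.86 CPM in the other controls) and Wnt7b (2.32 CPM against 41.0 to 42.6 CPM) were among those lowest in E434. The part of keratinocyte RNA in these values was not tested. For the Frizzled receptors the medians were -0.33, -0.35 and -0.17, and for the antagonists -0.44, -0.67 and -0.38.

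**Figure D5:**
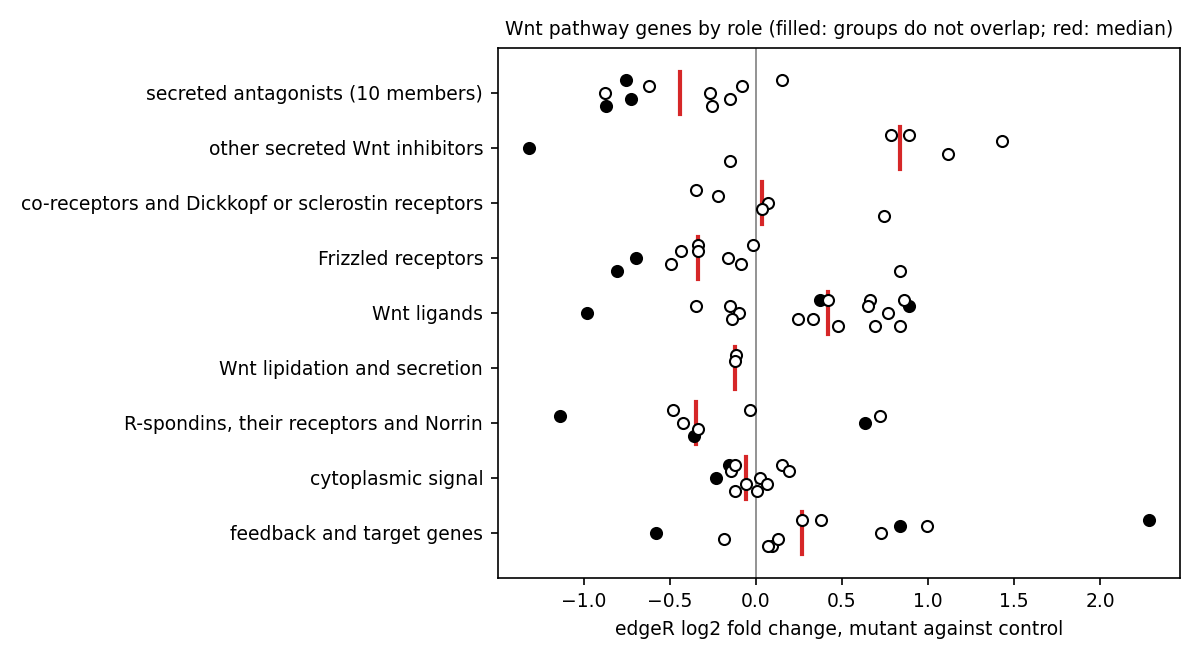
Log2 fold change of mutant against control from edgeR for the 10 antagonists and 70 other Wnt pathway genes by role; filled points are genes whose groups do not overlap and red bars are medians. The antagonists have a median of -0.44, the Frizzled receptors -0.33, the ligands 0.42 and the feedback and target genes 0.27 with all libraries, and with the early chondrocyte covariate these medians are -0.38, -0.17, -0.01 and 0.13.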

How the data were processed

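Rib cage RNA of 6 embryos was sequenced. The authors aligned reads to GRCm38 with HISAT2 2.1.0 and deposited raw counts per gene from featureCounts 1.6.0 on GENCODE exons, in which each end of a pair was counted, strand was not used, only primary alignments were counted, and reads overlapping several genes were not assigned. From the authors come, too, deposited expected counts and TPM values from STAR 2.7.6 and RSEM 1.2.31. The tables of the authors' own DESeq2 comparisons, with 12 further per-sample columns, were not used. Groups follow the genotype label. Comparisons were between littermates per the methods, but the litter of each embryo is not given in the sources used here. The p-values therefore set the difference between groups against the spread between these embryos, from which any litter difference is not separated. Symbols came from GENCODE M21, for 55141 of 55487 IDs.

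Genes with 10 or more counts in total entered edgeR 4.0.16 in R 4.3.3 (TMM scaling, glmQLFit and glmQLFTest), with Benjamini-Hochberg adjustment over the whole table. The standard error is the log2 fold change over the root of the F statistic. The limits follow the study's methods (0.1 on the adjusted p, 1 on the log2 fold change). Log2 CPM used a prior count of 2. One count equals 0.0209 to 0.0264 CPM before TMM. DESeq2 1.42.0 (Wald test), RSEM counts rounded to whole numbers, other filters and scalings, a covariate and left-out libraries were the alternatives. The members and lists were chosen with earlier results of these data known. Named genes were the members, Foxc1, Foxc2, the inhibitor, co-receptor and target lists, other Wnt genes with an unadjusted p under 0.05 and groups apart, and the nearest genes in pattern. The fits were tested on simulated data. The promoter motifs were chosen after the results were seen.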

Additional observations from a re-analysis of the deposited data

How the results depend on the processing

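Dkk1, Dkk2, Dkk3, Sfrp1, Sfrp2 and Notum, 6 of the 10 antagonists, stayed below 0 in all 14 alternatives, which changed the scaling, test, filter, pipeline, covariate or libraries. Of the others, with the early chondrocyte covariate Frzb was at 0.18 and Wif1 at 0.17, and without E434 and E433 Frzb was at 0.23. Size was less stable than direction. Leaving out 1 library at a time gave -0.79 (without mutant E433) to -0.04 (without mutant E440) for Sfrp2, -0.84 to -0.62 for Dkk1, -0.96 to -0.45 for Dkk2, -1.29 to -0.62 for Dkk3, -1.08 to -0.57 for Sfrp1 and -1.04 to -0.50 for Notum, and -0.24 to 0.49 for Sfrp5, -0.43 to 0.22 for Sfrp4, -0.53 to 0.32 for Frzb and -0.50 to 0.20 for Wif1.

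The count of members past both limits was 0, but 3 without E434 and E433, where 2066 of all 25045 genes tested were past them. With 1 library left out the count was 0 to 2. The 2 were Dkk3 and Sfrp1, without mutant E433, where 1087 of all 25844 genes tested were past the limits. For the other Wnt genes it was 0, but 4 with DESeq2's Wald test, 8 without E434 and E433, and 0 to 10 with 1 library left out. Over all genes it was 17, and 477 with DESeq2's Wald test, 35 with robust empirical Bayes, 37 with no low-count filter, 10 with RSEM counts, 244 with the covariate, 2066 without E434 and E433, 0 at an adjusted p under 0.01, and 0 to 1087 with 1 library left out. The highest of each of these ranges was without mutant E433. The cause was not tested. No paired analysis was possible because the sources used here do not say which embryos were littermates, and the replicate numbers used only name the embryos. Precision did not follow depth: the standard error was smallest for Dkk1 (0.154, at 209 to 440 counts per library) and among the largest for Sfrp2 (0.408, at 2076 to 4962 counts).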
